A study of Mus musculus with 10 samples.

Results

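Ribosome biogenesis factors are the proteins that process precursor rRNA and assemble it with ribosomal proteins into the 40S and 60S subunits, and 58 genes that encode them were followed across all 10 libraries of a culture experiment on mouse embryonic stem cells (mESCs). The members were named from the steps of ribosome assembly, and they were chosen with earlier results of these data known. Of the 58 genes, 56 were found by symbol among the 25965 features of the deposited table and all 56 were expressed above the filter used for testing. The remaining 2, Nop9 and Noc2l, were found by gene identifier under other names (2610027L16Rik and CAAA01066805.1), so their values are given apart and they are not counted.

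RNA-seq was performed on male mESCs of the C57BL/6 strain, in 5 groups of 2 libraries, to ask what the culture method does to such cells. Derivation of 2 lines took place under the study's own Keniry2022 conditions, and each line was divided at passage 0 (p0) and then kept to passage 10 (p10) and passage 20 (p20) under Keniry2022 or under Mulas2019 conditions. By the study's DNA-seq, a single line of the 2 had lost its Y chromosome during derivation, before the methods were compared. All groups were grown in 2i with LIF, which holds cells in the naive pluripotent state. Keniry2022 cells were kept in suspension in non-treated plates, at higher density, in more medium and with daily passaging, whereas Mulas2019 cells were attached to gelatin on tissue culture plates and passaged every other day. As a result, p20 Keniry2022 and p10 Mulas2019 had spent the same number of days in culture. The labels name the methods New or Off and Old or On, and their assignment to Keniry2022 and Mulas2019 follows the study's description. The 4 libraries per method are 2 lines at 2 passages and are not separate derivations, the methods differ in several respects at once, and p0 cells had known only Keniry2022 conditions.

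Ribosome assembly begins in the nucleolus, where the precursor rRNA is bound by small nucleolar ribonucleoproteins (snoRNPs) that guide its chemical modification. The small-subunit processome (UTP-A, UTP-B, the U3 snoRNP and the Mpp10 proteins) then folds and cleaves the 40S part, while other factors, among them the PeBoW complex and a set of GTPases, mature the 60S part and prepare it for export to the cytoplasm. Demand for ribosomes is high in rapidly dividing cells such as naive mESCs, and many of these genes are known targets of MYC family transcription factors, which bind the E-box CACGTG.

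Library totals worked out from the table lay between 24053996 and 30236823 reads, and the 56 genes had from 776 reads in a library (Fbl) to 112818 (Ncl). The summed level of 10 naive pluripotency markers was 1980 to 2100 RPKM in the Keniry2022 libraries at p10 and p20 and 1830 to 1880 in the Mulas2019 libraries, where RPKM is the read number scaled to exon length and library total. One by one they were mixed, with 4 higher under Keniry2022, 1 lower and 5 not called by limma at an adjusted p of 0.05. Of all features, 25.9% were higher and 25.5% lower. The median log2 difference of the 10 was 0.071, and the lower marker was Klf4 (-0.40, adjusted p = 0.00365 by limma). The sums of 8 primitive endoderm markers (4.25 to 6.25 RPKM under Keniry2022, 6.3 to 8.71 under Mulas2019) and of 8 trophoblast markers (26.6 to 30.0 and 31.1 to 38.5) were low and higher under Mulas2019. Over all libraries, the most read of these were Lama1 (562 to 1717 reads) among the endoderm markers and Tfap2c (1834 to 3370) and Eomes (162 to 345) among the trophoblast markers, and all 3 were lower under Keniry2022 (log2 differences -0.68, -0.33 and -0.40, adjusted p = 0.00403, 0.0202 and 0.0162 by limma). The trophoblast sum came mostly from Tfap2c, with means of 4.44 log2 RPKM under Keniry2022 and 4.78 under Mulas2019. The endoderm sum came mostly from Lama1 (1.74 and 2.42). Ascl2, a trophoblast marker with 118 to 178 reads, was not called (0.029, adjusted p = 0.82 by limma). Gata4 had 48 to 96 reads and Krt7 51 to 139, while Foxa2 (0 to 8), Elf5 (0 to 8), Cdx2 (2 to 30) and Hand1 (0 to 6) were near 0. The remaining markers of both lists were below the filter and not tested, and their means went both ways. Those of Sox7, Dab2, Foxa2, Cdx2 and Gata3 were higher under Keniry2022. Those of Gata6, Gata4, Sox17, Pdgfra, Elf5, Krt7 and Hand1 were higher under Mulas2019. Of 8 fibroblast markers, Dcn and Postn had 0 reads in every library and Col1a1 had 22 to 55. Pdgfrb had 25 to 43 reads under Keniry2022 and 73 to 148 under Mulas2019, whereas Thy1 had 11 to 29 and 6 to 12. The summed level of the 8 overlapped between methods, at 0.612 to 1.13 RPKM under Keniry2022 and 0.808 to 1.47 under Mulas2019. The part of these marker differences in the results below was not tested. The p0 pair stood apart, since the log2 difference within it had an SD of 0.611 across features, against 0.230 to 0.265 in the other pairs. This SD does not show which p0 replicate is the unusual one. Reads of Y-linked genes were high in replicate 2 and low in replicate 1 of every group except p20 Keniry2022, where the numbers were the other way round (6659 reads in replicate 1 and 48 in replicate 2).

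Ribosome biogenesis factors were on the whole higher under Keniry2022 than under Mulas2019, by a modest amount and at nearly every step. With p10 and p20 pooled, 40 of 56 genes were higher under Keniry2022 (71.4%, against 25.9% of the 11654 features tested), 3 were lower (5.36%, against 25.5%) and 13 were not called, by limma at an adjusted p of 0.05. The median log2 difference of the 56 genes was 0.22, with a range from -0.18 to 0.59, while that of all features was -0.003, and 50 of the 56 were above 0. In 42 genes the 4 Keniry2022 libraries all lay above the 4 Mulas2019 libraries and in 2 they all lay below, against 23.1% and 23.4% of the features tested. The 56 genes took 1.39% to 1.44% of all reads in the Keniry2022 libraries and 1.18% to 1.27% in the Mulas2019 libraries, and these ranges did not overlap. Less RNA per cell of these genes and fewer cells that express them cannot be told apart in bulk samples. A pair of settings changed the size of the result: with quantile normalisation 28 genes were higher and 4 lower with a median of 0.11, where 46.0% of all features were called, and in a model that also held the p0 libraries 21 were higher and 0 lower, where 19.2% of all features were called. Among the genes with values below, Nop56, Dkc1, Utp6, Utp3, Nop14, Tsr1, Rrp1, Ncl, Npm1 and Nolc1 were not called in that model (adjusted p 0.0529 to 0.205).

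**Figure D1:**
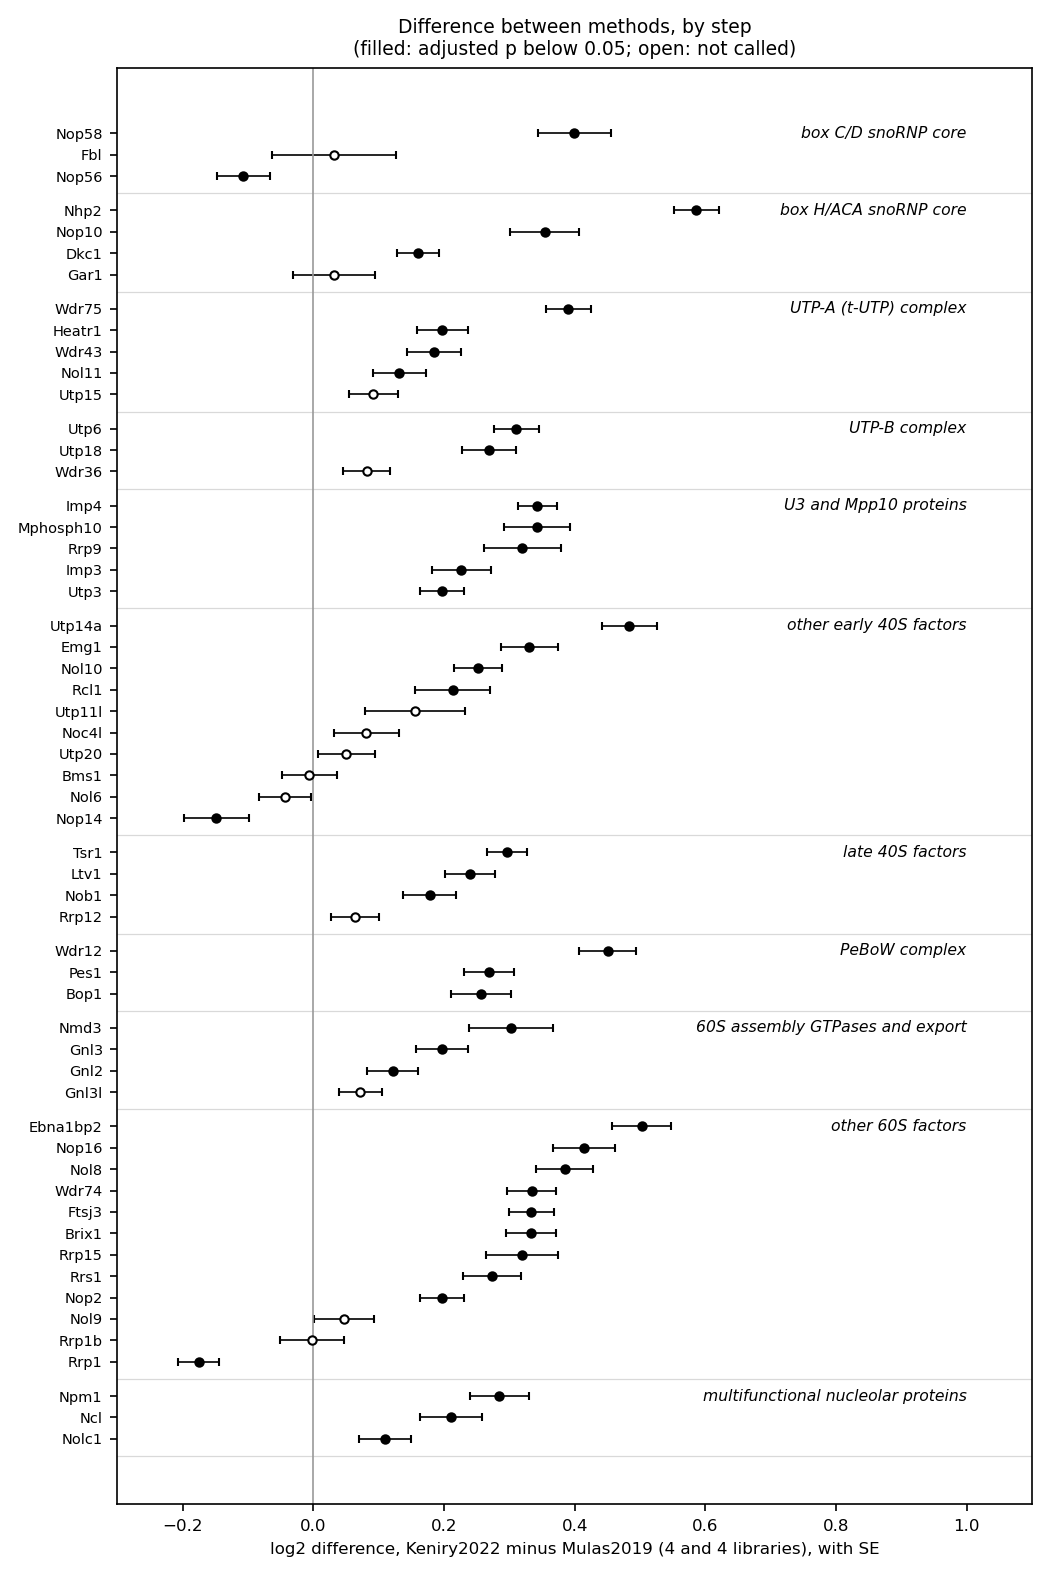
Log2 difference in RPKM between Keniry2022 and Mulas2019 (x axis) for the 56 genes (y axis), grouped by step and pooled over p10 and p20, with 4 libraries per method. Points are fitted differences, bars their SE, filled points passed an adjusted p of 0.05 and open points did not: 40 filled points lie right of 0 and 3 (Nop56, Nop14 and Rrp1) lie left of it. Signs under other settings were checked only for the genes with values per library in the text. Among those, Fbl, Gar1, Wdr36, Gnl3l and Nolc1 fell below 0 with quantile normalisation. Bms1 and Rrp1b rose above 0 with median centring.

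Promoter sequences from RefSeq (GRCm38.p6, the build of the table, a window of 300 bases that ends 50 bases past the start of the gene) were matched for 45 of the 56 genes, and 11 (Fbl, Wdr36, Utp6, Utp11l, Nol6, Rrp12, Bop1, Gnl2, Gnl3l, Rrs1 and Npm1) had no entry. The E-box CACGTG, which reads the same on both strands, was present in 10 of the 45 genes (22.2%), against 12.6% of the 7961 tested genes with a promoter, and per promoter in 20.4% against 7.15% of all 32851 promoters. The 10 were Imp4, Nmd3, Nop2, Ltv1, Utp20, Pes1, Tsr1, Utp18, Nol11 and Wdr43. The ETS-type motif CCGGAAGT, searched on both strands, was present in 13 genes (28.9%, against 9.89% of tested genes), and per promoter in 26.5% against 3.89%. GCATGCGC was in 2 of the 45 genes (4.44%, against 6.71% of tested genes and 2.71% of all promoters), AAGATGGC in 2 (4.44%, against 5.55% and 2.75%) and TATAAA in 3 (6.67%, against 8.01% and 13.6%), both strands included. The median difference between methods was 0.25 in the 10 genes with CACGTG, 9 of which were called higher, and 0.23 in the 35 without it, 26 of which were. No binding was measured, and these counts describe letters in the promoters only.

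Promoters are shown for the genes with the largest (Nhp2) and the lowest (Rrp1) difference between methods among those with a single promoter entry, and for the 2 with the largest difference that held each motif. They lie at Nhp2, chr11:51619523-51619822, plus strand; Rrp1, chr10:78412994-78413293, minus strand; Imp4, chr1:34439579-34439878, plus strand; Nmd3, chr3:69721805-69722104, plus strand; and Ebna1bp2, chr4:118620549-118620848, plus strand. All are 300 bases, 5′ to 3′ on the strand of the gene, and capitals mark CACGTG or CCGGAAGT on either strand.
Nhp2: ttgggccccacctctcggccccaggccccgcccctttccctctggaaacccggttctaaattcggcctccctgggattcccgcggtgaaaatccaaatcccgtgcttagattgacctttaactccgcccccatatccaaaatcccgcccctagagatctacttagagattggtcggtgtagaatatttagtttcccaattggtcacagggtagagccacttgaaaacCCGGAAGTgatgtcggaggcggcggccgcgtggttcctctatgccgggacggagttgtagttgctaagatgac
Rrp1: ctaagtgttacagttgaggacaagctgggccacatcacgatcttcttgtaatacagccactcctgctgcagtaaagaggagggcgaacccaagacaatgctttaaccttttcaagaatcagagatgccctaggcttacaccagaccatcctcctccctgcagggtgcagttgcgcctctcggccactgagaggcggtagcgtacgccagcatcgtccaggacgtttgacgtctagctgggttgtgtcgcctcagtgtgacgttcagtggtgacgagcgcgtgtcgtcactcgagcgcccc
Imp4: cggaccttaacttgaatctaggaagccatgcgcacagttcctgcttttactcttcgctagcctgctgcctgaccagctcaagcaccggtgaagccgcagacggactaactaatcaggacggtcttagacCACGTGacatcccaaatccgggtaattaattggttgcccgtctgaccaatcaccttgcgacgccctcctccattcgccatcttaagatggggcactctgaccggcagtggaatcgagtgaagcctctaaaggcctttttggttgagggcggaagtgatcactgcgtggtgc
Nmd3: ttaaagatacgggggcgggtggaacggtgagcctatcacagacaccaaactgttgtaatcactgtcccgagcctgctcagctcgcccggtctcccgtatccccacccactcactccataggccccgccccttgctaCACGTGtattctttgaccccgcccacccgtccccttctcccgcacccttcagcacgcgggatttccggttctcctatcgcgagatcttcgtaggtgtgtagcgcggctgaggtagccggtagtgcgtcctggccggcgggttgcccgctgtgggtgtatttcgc
Ebna1bp2: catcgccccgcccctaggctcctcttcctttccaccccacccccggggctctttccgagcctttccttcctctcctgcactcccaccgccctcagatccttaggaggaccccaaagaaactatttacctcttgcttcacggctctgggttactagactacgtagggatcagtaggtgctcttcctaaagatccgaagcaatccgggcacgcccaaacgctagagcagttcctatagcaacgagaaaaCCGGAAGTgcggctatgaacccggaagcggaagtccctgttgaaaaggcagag
With the start base of the gene as position 0, the E-box began at -121 in Imp4 and at -114 in Nmd3, and CCGGAAGT began at -23 in Nhp2 and at -3 in Ebna1bp2. The promoter of Rrp1, which was lower under Keniry2022, held neither motif.

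The box C/D snoRNP core, which carries the 2′-O-methylation of rRNA, did not move as 1 unit. Nop58, a scaffold protein of the particle, had 8.24, 8.20, 8.12 and 8.04 log2 RPKM under Keniry2022 (p10 replicates 1 and 2, then p20, the order used throughout) and 7.87, 7.76, 7.65 and 7.73 under Mulas2019. The groups did not overlap, and Nop58 was higher under Keniry2022 by 0.40 ± 0.056 (log2 difference ± SE, adjusted p = 0.000352 by limma). Its partner scaffold Nop56 had 5.99, 5.96, 5.85 and 5.87 under Keniry2022 and 6.01, 5.97, 6.06 and 6.06 under Mulas2019, so that the groups overlapped at p10 and separated at p20. Nop56 was lower under Keniry2022 by the pooled fit (-0.11 ± 0.041, adjusted p = 0.0482 by limma), a call that was lost with median centring, with library weights, without the filter, with the replicate block (adjusted p 0.0662 to 0.0811) and when replicate 2 of p10 Keniry2022, either p20 library of Keniry2022, replicate 1 of p10 Mulas2019 or either p20 library of Mulas2019 was left out (adjusted p 0.0582 to 0.119). With quantile normalisation the difference of Nop56 was -0.24 (adjusted p = 0.00122 by limma). Exons of Nop56 overlap Idh3b, so a share of its reads cannot be assigned. Fbl, the methyltransferase fibrillarin, had 5.04, 4.92, 4.97 and 5.05 under Keniry2022 and 4.79, 5.25, 5.04 and 4.78 under Mulas2019. Its Mulas2019 values spanned the whole Keniry2022 range, and the difference was 0.03 ± 0.095 (adjusted p = 0.797 by limma) with a sign that turned with quantile normalisation. Fbl also had the lowest read number of the 56 genes in a library (776), at a mean of 4.98 log2 RPKM (rank 2006 of 11654).

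The box H/ACA snoRNP core, which converts uridine to pseudouridine, held the gene with the largest difference of all 56. Nhp2, an RNA-binding protein of the core, had 7.83, 7.89, 7.76 and 7.79 log2 RPKM under Keniry2022 and 7.21, 7.25, 7.24 and 7.23 under Mulas2019. These groups were far apart relative to the spread within them, with a 1.5-fold higher level under Keniry2022 (log2 difference 0.59 ± 0.035, adjusted p = 1.9e-05 by limma). The pseudouridine synthase Dkc1 had 6.72, 6.67, 6.64 and 6.64 under Keniry2022 and 6.53, 6.47, 6.52 and 6.51 under Mulas2019. The groups did not overlap and were closer, at 0.16 ± 0.032 (adjusted p = 0.00235 by limma), which was not called with quantile normalisation (0.026, adjusted p = 0.521). Nop10, the small core protein, was higher by 0.35. Gar1 had 5.12, 5.11, 5.30 and 5.15 under Keniry2022 and 4.99, 5.26, 5.15 and 5.17 under Mulas2019, and its groups overlapped (0.03 ± 0.062, adjusted p = 0.69 by limma), with a sign that turned with quantile normalisation. Thus 3 of 4 genes of this core were higher under Keniry2022. Exons of Nhp2 overlap Rmnd5b and those of Dkc1 overlap Mpp1, so a share of reads there cannot be assigned.

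Among the early binding complexes of the 40S precursor, 4 of 5 UTP-A genes and 2 of 3 UTP-B genes were higher under Keniry2022. In UTP-A, which binds first and is linked to transcription of rRNA genes, Wdr75 had 5.54, 5.48, 5.49 and 5.49 log2 RPKM under Keniry2022 and 5.15, 5.11, 5.05 and 5.12 under Mulas2019. This was a difference of 0.39 ± 0.034 with no overlap (adjusted p = 4.54e-05 by limma). Heatr1, Wdr43 and Nol11 were higher by 0.20, 0.18 and 0.13. Utp15 had 4.36, 4.38, 4.31 and 4.31 under Keniry2022 and 4.25, 4.197, 4.25 and 4.30 under Mulas2019, and although the groups did not overlap it was not called (0.092 ± 0.037, adjusted p = 0.0632 by limma). In UTP-B, a scaffold of the processome, Utp6 had 5.40, 5.46, 5.48 and 5.47 under Keniry2022 and 5.19, 5.15, 5.11 and 5.11 under Mulas2019, and Utp18 was higher by 0.27. The difference of Utp6 was 0.31 ± 0.035 (adjusted p = 0.000119 by limma). Wdr36 had 5.74, 5.67, 5.76 and 5.72 under Keniry2022 and 5.69, 5.67, 5.59 and 5.62 under Mulas2019, overlapped at p10 and was not called (0.082 ± 0.036, adjusted p = 0.0826 by limma), with a value just below 0 with quantile normalisation (-0.025).

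All 5 genes of the U3 and Mpp10 group, the proteins that hold the U3 snoRNA on the precursor, were higher under Keniry2022, with a median difference of 0.32. Imp4, which with Imp3 and Mphosph10 forms the Mpp10 complex, had 5.33, 5.34, 5.30 and 5.34 log2 RPKM under Keniry2022 and 4.96, 5.002, 4.98 and 4.997 under Mulas2019. Its spread was among the smallest here, and the difference was 0.34 ± 0.030 (adjusted p = 4.7e-05 by limma). Mphosph10, Rrp9 and Imp3 were higher by 0.34, 0.32 and 0.23. Utp3 had 6.37, 6.33, 6.32 and 6.32 under Keniry2022 and 6.14, 6.20, 6.10 and 6.11 under Mulas2019. That is a difference of 0.20 ± 0.033 (adjusted p = 0.000939 by limma), which was not called with quantile normalisation (adjusted p = 0.0938).

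The other early 40S factors were the most mixed group, with 4 of 10 higher, 1 lower and 5 not called. Utp14a, an activator of the helicase that releases U3, had 4.26, 4.29, 4.26 and 4.24 log2 RPKM under Keniry2022 and 3.78, 3.79, 3.69 and 3.85 under Mulas2019. It was 1.4-fold higher under Keniry2022 (0.48 ± 0.043, adjusted p = 4.69e-05 by limma). Emg1, a methyltransferase, Nol10 and Rcl1 were higher by 0.33, 0.25 and 0.21. Nop14 went the other way, with 5.63, 5.60, 5.58 and 5.62 under Keniry2022 and 5.86, 5.83, 5.65 and 5.68 under Mulas2019. Its difference was -0.15 ± 0.050 (adjusted p = 0.0289 by limma), larger at p10 (-0.23) than at p20 (-0.064, not called), although the change between passages was not tested as an interaction. The pooled call of Nop14 was lost with median centring and without the filter (adjusted p = 0.0587 and 0.0671) and when replicate 2 of p10 Keniry2022, either p20 library of Keniry2022 or either p10 library of Mulas2019 was left out (adjusted p 0.0509 to 0.0812), and exons of Gm15522 overlap it. Bms1, a GTPase of the processome, had 5.46, 5.44, 5.48 and 5.53 under Keniry2022 and 5.53, 5.56, 5.41 and 5.43 under Mulas2019. Its groups overlapped and no difference was detected (-0.0062 ± 0.042, adjusted p = 0.914 by limma), with a sign that turned with median centring. Utp11l, Noc4l, Utp20 and Nol6 were not called either, with differences of 0.16, 0.081, 0.051 and -0.043. Nop9, counted apart, was higher by 0.17 ± 0.042 (adjusted p = 0.00825 by limma).

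**Figure D2:**
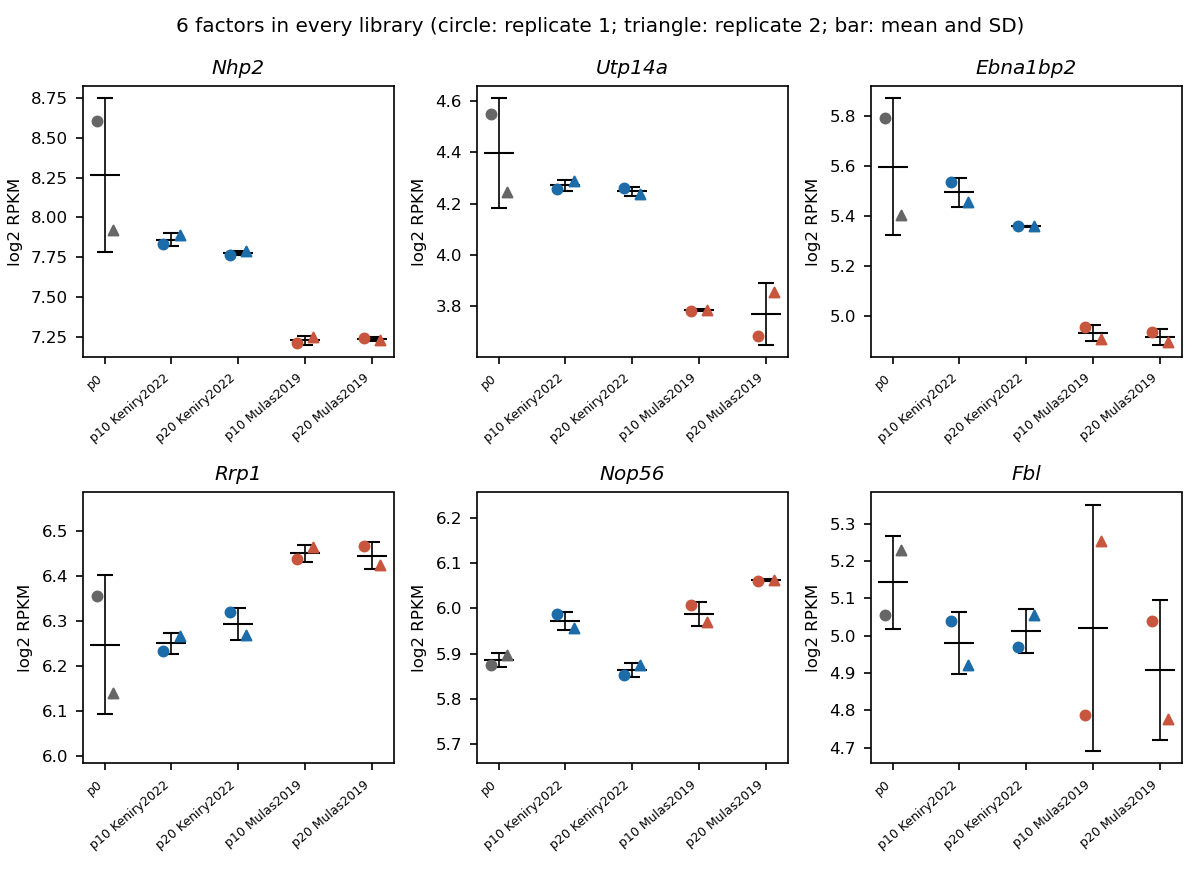
Log2 RPKM (y axis) of 6 factors in each of the 5 groups (x axis), with circles for replicate 1, triangles for replicate 2 and bars for the mean and SD of 2 libraries. Nhp2, Utp14a and Ebna1bp2 were lower in all 4 Mulas2019 libraries than in any other, Rrp1 was higher in them, Nop56 separated at p20 and Fbl overlapped between methods.

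Of the late 40S factors, which act on the pre-40S particle on its way out of the nucleus and in the cytoplasm, 3 of 4 were higher. Tsr1, a GTPase-like protein of the cytoplasmic particle, had 5.94, 5.99, 5.92 and 5.94 log2 RPKM under Keniry2022 and 5.65, 5.66, 5.64 and 5.67 under Mulas2019. The Mulas2019 libraries had an SD of 0.011 (n = 4), and the difference was 0.30 ± 0.030 (adjusted p = 8.08e-05 by limma). Ltv1 and the endonuclease Nob1 were higher by 0.24 and 0.18. Rrp12, an export factor, had 4.56, 4.57, 4.52 and 4.58 under Keniry2022 and 4.49, 4.55, 4.48 and 4.45 under Mulas2019, and was not called (0.064 ± 0.036, adjusted p = 0.168 by limma).

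On the 60S side, all 3 genes of the PeBoW complex, which is needed for processing of the 60S rRNA precursor, were higher under Keniry2022. Wdr12 had 4.10, 3.99, 4.0 and 3.93 log2 RPKM under Keniry2022 and 3.58, 3.56, 3.55 and 3.53 under Mulas2019. It was 1.37-fold higher (0.45 ± 0.044, adjusted p = 6.33e-05 by limma), and its groups were well apart. Bop1 had 5.87, 5.83, 5.79 and 5.82 under Keniry2022 and 5.64, 5.65, 5.54 and 5.46 under Mulas2019. It was higher by 0.26 ± 0.046 (adjusted p = 0.00127 by limma). Pes1 was higher by 0.27. Among the GTPases and the export adaptor, Nmd3, which links the 60S subunit to the export receptor, had 5.81, 5.82, 5.98 and 5.75 under Keniry2022 and 5.51, 5.48, 5.45 and 5.71 under Mulas2019. The highest Mulas2019 value of Nmd3 lay just under the lowest Keniry2022 value (0.30 ± 0.064, adjusted p = 0.0033 by limma). Gnl3 (nucleostemin) and Gnl2 were higher by 0.20 and 0.12, so that 3 of these 4 genes were higher. Gnl3l, the close relative of Gnl3, had 4.996, 4.98, 4.96 and 5.04 under Keniry2022 and 4.94, 4.91, 4.91 and 4.92 under Mulas2019, did not overlap and was not called (0.072 ± 0.033, adjusted p = 0.093 by limma), with a value of -0.014 with quantile normalisation.

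Of the 12 other 60S factors, 9 were higher, 1 was lower and 2 were not called. Ebna1bp2, a nucleolar scaffold of early pre-60S particles, had 5.54, 5.46, 5.36 and 5.36 log2 RPKM under Keniry2022 and 4.96, 4.91, 4.94 and 4.90 under Mulas2019. The difference of 0.50 ± 0.045 was the second largest of the 56 (1.42-fold, adjusted p = 4.73e-05 by limma). Nop16 and Nol8 were higher by 0.41 and 0.38, Wdr74, Ftsj3 and Brix1 each by 0.33, Rrp15 by 0.32, Rrs1 by 0.27 and the rRNA methyltransferase Nop2 by 0.20. Rrp1 was the gene with the lowest difference of all, with 6.23, 6.27, 6.32 and 6.27 under Keniry2022 and 6.44, 6.46, 6.47 and 6.42 under Mulas2019. The groups did not overlap (-0.18 ± 0.031, adjusted p = 0.00121 by limma). Its paralogue Rrp1b had 4.55, 4.58, 4.43 and 4.51 under Keniry2022 and 4.54, 4.62, 4.45 and 4.48 under Mulas2019. No difference was detected for Rrp1b (-0.002 ± 0.050, adjusted p = 0.976 by limma), with a sign that turned with median centring, and whether Rrp1 and Rrp1b differ from each other was not tested. Nol9 was not called (0.047). Noc2l, counted apart, had a difference of 0.077 ± 0.032 (adjusted p = 0.0658 by limma).

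The multifunctional nucleolar proteins Ncl, Npm1 and Nolc1 were all higher under Keniry2022, and Npm1 and Ncl were the most abundant of the 56 genes per length. Npm1 (nucleophosmin), a chaperone of the granular part of the nucleolus, had 9.07, 9.01, 9.05 and 8.95 log2 RPKM under Keniry2022 and 8.84, 8.67, 8.73 and 8.70 under Mulas2019. Its mean over these libraries of 8.88 ranked 34 of 11654 features, and the difference was 0.28 ± 0.045 (adjusted p = 0.000645 by limma). Ncl (nucleolin) had 8.89, 8.88, 8.85 and 8.86 under Keniry2022 and 8.77, 8.71, 8.57 and 8.58 under Mulas2019. The Keniry2022 libraries had an SD of 0.020 (n = 4). The difference was 0.21 ± 0.047 (adjusted p = 0.00421 by limma), which was not called with quantile normalisation (0.057, adjusted p = 0.189). Nolc1, a chaperone of snoRNPs, had 6.46, 6.49, 6.45 and 6.52 under Keniry2022 and 6.41, 6.44, 6.28 and 6.35 under Mulas2019. Its difference of 0.11 ± 0.040 (adjusted p = 0.0411 by limma) was not called when any 1 of the 4 Keniry2022 or either p20 Mulas2019 library was left out (adjusted p 0.0524 to 0.112) without the filter (0.0667) or with the crossed replicate block (0.0567), and was -0.003 with quantile normalisation. At the other end of the scale were Utp11l, Wdr12 and Utp14a, at means of 3.21, 3.78 and 4.02 log2 RPKM.

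Ribosome biogenesis genes outside the list moved in the same direction by count. Of 107 tested genes in 7 further lists, 71 were higher under Keniry2022, 1 was lower and 35 were not called, with a median difference of 0.21, against the 25.9% and 25.5% of all features given above. The counts were 14 of 20 other processome genes, 6 of 9 late 40S genes, 21 of 35 other 60S genes, 4 of 6 genes of cytoplasmic 60S maturation, 11 of 13 exosome genes (the exosome trims rRNA ends), 6 of 10 snoRNP assembly genes and 9 of 14 genes of rRNA transcription. The 3 largest differences were those of Nip7 (0.60 ± 0.051, adjusted p = 3.98e-05 by limma), a 60S factor, Exosc5 (0.57 ± 0.045, adjusted p = 3.56e-05), an exosome subunit, and Rsl24d1 (0.48 ± 0.059, adjusted p = 0.000186), a placeholder for a ribosomal protein. The 1 gene that was lower was Polr1a, the largest subunit of RNA polymerase I, with 4.90 ± 0.069 log2 RPKM under Keniry2022 and 5.09 ± 0.037 under Mulas2019 (SD, n = 4, difference -0.19 ± 0.042, adjusted p = 0.00365 by limma). Polr1a was named after its value was seen.

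At each passage separately, the difference was of like size. At p10, 39 of the 56 genes were higher under Keniry2022 and 2 (Nop14 and Rrp1) lower, with a median of 0.22, against 24.8% and 23.5% of all features. At p20, 40 were higher and 2 (Nop56 and Rrp1) lower, with a median of 0.25, against 18.6% and 18.2%. Nhp2 again had the largest difference at both, 0.63 ± 0.038 at p10 and 0.54 ± 0.038 at p20 (adjusted p = 7.52e-05 and 0.000364 by limma). With days of culture matched (p20 Keniry2022 against p10 Mulas2019), 36 were higher and 3 (Nop14, Rrp1 and Nop56) lower, with a median of 0.18, against 22.7% and 20.7%. With quantile normalisation the matched comparison gave 19 higher and 6 lower, where 38.3% of all features were called. These fits left out the p0 libraries. When p0 was included, the spread it added reduced the calls to 7 at p10, 1 at p20 and 2 with days matched, where 8.53%, 2.15% and 6.43% of all features were called, although the differences themselves stayed the same. Whether the difference between methods changed from p10 to p20 was not tested, and the 3 comparisons share libraries.

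**Figure D3:**
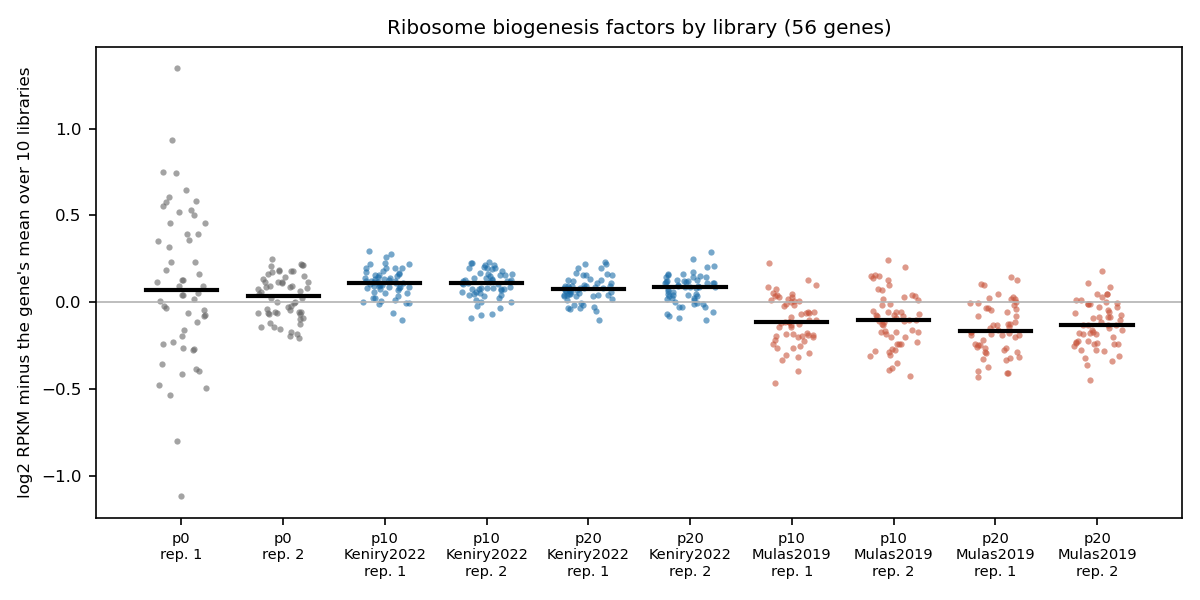
Log2 RPKM of each of the 56 genes minus its own mean over the 10 libraries (y axis), for each library (x axis), with 1 point per gene and a black bar at the median. Medians were 0.112 and 0.111 in the p10 Keniry2022 libraries, 0.0759 and 0.0871 at p20 Keniry2022, -0.114 and -0.104 at p10 Mulas2019 and -0.166 and -0.132 at p20 Mulas2019, and p0 replicate 1 was the most widely spread.

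Against p0, genes were called under Mulas2019 and not under Keniry2022. No gene was called in p10 or p20 Keniry2022 against p0 (0 of 56 in both by limma and by voom), and 17 and 20 had an unadjusted p under 0.05 (30.4% and 35.7%, against 24.7% and 28.0% of all features). The median differences were 0.069 and 0.035. Few features of any kind were called in these comparisons, with 0.0432% higher and 0.156% lower at p10, and 0.0519% and 0.147% at p20. Without p0 replicate 1 the counts were 3 and 2, where 5.23% and 4.61% of all features were called. Without p0 replicate 2 they were 40 and 40 (higher 22 and 21, lower 18 and 19), where 64.3% and 66.5% of all features were called. In these fits p0 is a single library that is assumed to vary like the other groups.

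Under Mulas2019, 20 genes were lower and 5 higher than p0 at p10, with a median of -0.12 (17.3% of all features were lower and 15.7% higher). At p20, 18 were lower and 0 higher, with a median of -0.18 (14.6% and 14.7%). Nhp2 fell by 1.04 ± 0.19 and 1.03 ± 0.19, Utp14a by 0.61 ± 0.11 and 0.63 ± 0.11, and Wdr12 by 0.51 ± 0.098 and 0.54 ± 0.098 on the log2 scale (adjusted p 0.0135 to 0.0161 by limma). Against p0 replicate 2 alone, with no test, the differences of Nhp2 were -0.69 and -0.69, those of Utp14a -0.46 and -0.48 and those of Wdr12 -0.39 and -0.42. All 5 genes of the U3 and Mpp10 group were called lower at p10. At p20 all 5 differences were below 0 (the smallest fall was -0.26), and 4 of the 5 were called. At p10 the differences of Rrp9, Mphosph10, Imp3, Imp4 and Utp3 were -0.49, -0.81, -0.72, -0.27 and -0.30 against the p0 pair and -0.29, -0.54, -0.44, -0.17 and -0.16 against p0 replicate 2 alone, so each was smaller by 1.5 times or more. At p10, 19 of the 56 genes had a difference above 0. The 5 called higher were Bms1, Nop14, Nol6, Rrp1b and Rrp12, by 0.44, 0.41, 0.41, 0.34 and 0.34. Against p0 replicate 2 alone these were 0.20, 0.33, 0.21, 0.32 and 0.19, so those of Bms1, Nol6 and Rrp12 were smaller by over 1.5 times. Utp20 and Heatr1 rose by 0.70 and 0.43 against the p0 pair and were not called. Against p0 replicate 2 alone their differences were 0.19 and 0.030. With quantile normalisation the split was 10 higher and 10 lower at p10 (median 0.061) and 9 and 11 at p20 (median 0.036), so that the direction of the median turned, and 32.7% and 27.5% of all features were called. Library quality weights, or leaving out either Mulas2019 library of the passage, gave 0 calls (with the weights, 19 and 18 genes had an unadjusted p under 0.05). Leaving out p0 replicate 1 gave 34 calls at p10 and 35 at p20 (40.5% and 37.5% of all features), and leaving out p0 replicate 2 gave 43 and 45 (71.8% and 71.1%). In each of these fits a group of 1 library took its spread from the other groups, so the counts show how far the calls moved and are no test of the missing library. At p10, leaving out a Keniry2022 library or a p20 Mulas2019 library lowered the number of genes called.

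The p0 values of the 56 genes differed between the replicates by exon length. Shorter genes read higher in replicate 1, with a median difference from replicate 2 of 0.399 in the 13 genes of up to 2000 bases (11 above 0), 0.204 in 23 genes of 2000 to 4000 bases (18 above 0) and -0.206 in 20 longer genes (3 above 0). Nop10, at 1109 bases, had 7.41 in replicate 1 and 6.14 in replicate 2, whereas Utp20 had 3.81 and 4.83. Spearman's rho between the difference and exon length was -0.641 over the 56 genes and -0.577 over 11653 features, given as a description, since genes of 1 pair of libraries are not independent. Exon length also bore a weaker relation to the difference between methods (rho -0.237 over the 56 genes and -0.276 over all features). The median difference between methods was 0.239, 0.268 and 0.143 in the same length classes, with 11 of 13, 19 of 23 and 10 of 20 genes called higher. The part of exon length in the difference between methods was not tested.

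**Figure D4:**
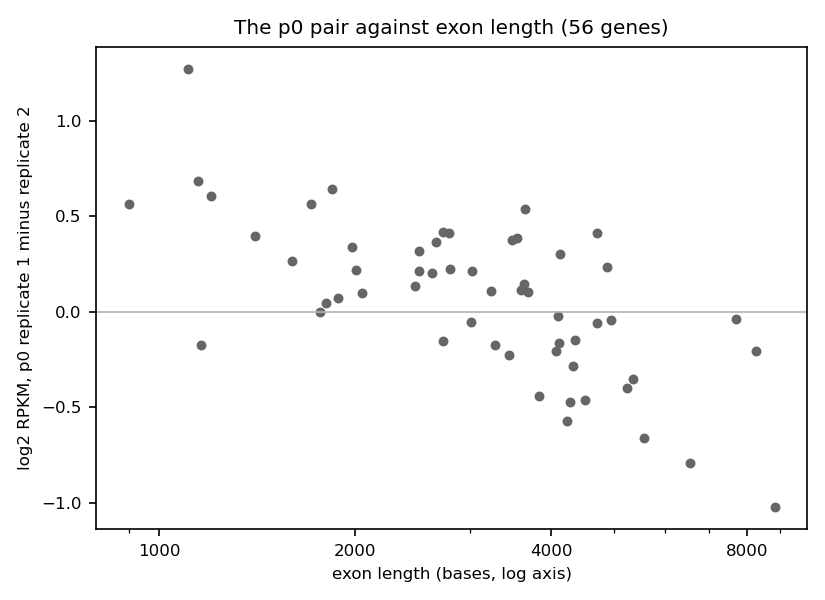
Difference in log2 RPKM between p0 replicate 1 and replicate 2 (y axis) against exon length in bases on a log axis (x axis), with 1 point for each of the 56 genes. Most genes up to 2000 bases lie above 0 (11 of 13) and most over 4000 bases lie below it (3 of 20 above).

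Between p10 and p20 of the same method no gene passed the test. Under Keniry2022 no gene of the 56 was called by limma or voom (8 had an unadjusted p under 0.05, or 14.3%, against 12.7% of all features), and the median difference was -0.034, where 0.0343% of all features were called higher and 0% lower. Under Mulas2019 no gene was called by limma (9 had an unadjusted p under 0.05, or 16.1%, against 22.5% of all features), 2 were called lower by voom, and the median was -0.044, where 1.61% of all features were called higher and 0.858% lower. Nearest to the threshold under Mulas2019 were Nop14 (-0.18 ± 0.039, adjusted p = 0.0525 by limma) and Ncl (-0.16 ± 0.038, adjusted p = 0.0589). Nop14 had 5.86 and 5.83 at p10 and 5.65 and 5.68 at p20.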

How the data were processed

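RNA-seq of 10 libraries was analysed from the processed values. The authors deposited 1 table of log2 values for 25965 features, aligned, per the study, to mm10 with HISAT2 and quantified in SeqMonk, whereas the submitters' notes name TopHat2 2.0.12 and bcl2fastq, and the sources used here give neither annotation release, strand setting nor the treatment of reads with several alignments. The deposited log2 values are called log CPM, but they are log2 RPKM, because the value of a feature without reads (entered as 0.9 reads) varies with its exon length. Library totals, 24053996 to 30236823 reads, of which 86.0% to 88.8% fell in features, and exon lengths were worked out from those floors and by a search for lengths that give whole reads in all libraries. Reads are not independent molecules, so depth covers counting error only. Exons of 14 of the 56 genes overlap another feature (GENCODE vM21), and their reads cannot be assigned with confidence. Among genes with values per library these are Nop56, Dkc1, Nhp2, Nop14, Tsr1 (Srr), Bop1 (Heatr7a) and Wdr12 (Carf).

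Tests used limma 3.58.1 in R 4.3.3 (moderated test with intensity trend, two-sided, Benjamini-Hochberg over all features tested, threshold 0.05), on features with a log2 value above 0 in at least 50% of the libraries of the fit. The authors used edgeR and voom on reads with both passages pooled, and limma trend was used instead, as suits log2 input. The methods were compared with 4 libraries each and no block, single passages in a model of 4 groups without p0, and comparisons with p0 in a model of 5 groups. No table column was left unused. The step was tested on simulated data.

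The labels number the 2 libraries of each group, and the numbers may mark the 2 lines. By Y-linked reads they do not mark the same line at p20 Keniry2022 as in the other groups. The plain replicate block follows the labelled numbers and so sets unlike lines together there. Correlations of deviations between same-numbered libraries were 0.171 to 0.63 between groups other than p20 Keniry2022 and -0.118 to -0.698 with it, so a block with these 2 numbers crossed was added after the data were seen. The members and the lists were chosen with earlier results of these data known. Values per library are given for the genes with the largest and the smallest difference of each step, the best known protein of some steps (Fbl, Dkc1, Ncl, Npm1) and all genes called lower, and, of other lists, for the 3 largest differences only the fitted values. Promoters came from RefSeq (GRCm38.p6), with 45 genes matched. Alternatives were quantile normalisation, median centring, a stricter filter (log2 above 2) or none, log2(RPKM + 1), library weights, voom, the block, passage as a term, a model with p0 and leaving out each library.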

Additional observations from a re-analysis of the deposited data

How the results depend on the processing

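The number of genes called in the pooled comparison of methods (43 of 56) stayed within 1.5 times under every alternative except the model of 10 libraries and 5 groups, which gave 21, while quantile normalisation (32 called) lowered the median difference from 0.22 to 0.11. That model also gave 7 at p10 (from 41), 1 at p20 (from 42) and 2 with days matched (from 39), since the spread of the p0 pair enters it. Quantile normalisation gave 23 at p20 and 25 with days matched, and the cause was not tested. Leaving out 1 library gave 39 to 41 genes pooled, 31 to 41 at p10, 28 to 40 at p20 and 28 to 37 with days matched. Against p0, it gave 0 to 40 for p10 Keniry2022, 0 to 40 for p20 Keniry2022, 0 to 43 for p10 Mulas2019 (from 25) and 0 to 45 for p20 Mulas2019 (from 18). For Mulas2019, library quality weights gave 0 at p10 and 0 at p20, and no filter gave 15 at p10. For p20 against p10 Mulas2019, median centring, the stricter filter and voom each gave 2 in place of 0. The replicate block gave 42 pooled and, with the p20 Keniry2022 numbers crossed, 41. It gave 40 at p10, 40 at p20 and 38 with days matched, and beside the pooled calls of Nop56 and (crossed) Nolc1 no count moved by over 1.5 times. Among genes described one by one, signs turned in genes that were not called: with quantile normalisation Fbl (-0.054), Gar1 (-0.055), Wdr36 (-0.025) and Gnl3l (-0.014), and the called Nolc1 (-0.0030); with median centring Bms1 (0.0066) and Rrp1b (0.011); with library weights Fbl (-0.014), Gar1 (-0.0084) and Rrp1b (0.018); and with 1 library left out Fbl (range -0.031 to 0.128), Gar1 (-0.020 to 0.071), Bms1 (-0.031 to 0.019) and Rrp1b (-0.026 to 0.031). A group left with 1 library was assumed to vary like the other groups.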
